A study of Mus musculus with 18 samples.

Results

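Opioid receptors are G protein-coupled receptors that couple to inhibitory G proteins. Once activated they lower cyclic AMP, open inwardly rectifying potassium channels and close presynaptic calcium channels, so that they generally dampen neuronal firing and transmitter release. The mu, delta and kappa receptors are encoded by Oprm1, Oprd1 and Oprk1, and the nociceptin receptor by Oprl1. Pnoc encodes the precursor of nociceptin, the peptide that Oprl1 binds, while the peptides of the other receptors come mainly from Penk (enkephalins), Pdyn (dynorphins) and Pomc (beta-endorphin). In the striatum, enkephalin is characteristic of the projection neurons of the indirect pathway and dynorphin of those of the direct pathway.

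The values given here are those of 5 genes, the 4 opioid receptor genes and Pnoc, chosen by symbol among the 38561 genes counted. All 5 symbols matched an Ensembl identifier of the count files, and all 5 passed the filter on low counts (at least 10 counts in at least 1 library). The study sequenced mRNA of the frontal cortex, striatum and hippocampus of adult C57 Bl6J mice of the WT and Pcm1-/- genotypes, with 3 libraries per region and genotype and 18 in all. The Pcm1-/- mice carry a gene-trap insertion from 1 embryonic stem cell line (AZ0079, of the parental line E14Tg2a.4) in every cell, so that the loss is not limited to a cell type or an age, and the WT mice were littermates. The methods give the backcross to this strain as at least 3 generations and state no exact number. The 3 regions of a genotype came from the same 3 animals. Pcm1 encodes a scaffold protein of the centriolar satellites. The study sequenced RNA to look for subcellular abnormalities that go with the anatomical and behavioral defects of mice without it.

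Each library held 24950537 to 33405081 counts on genes. Pcm1 counts were 3425 to 4919 in WT and 313 to 520 in Pcm1-/- libraries, and no library went against its genotype label. Region labels were checked against marker lists. The 7 markers of striatal projection neurons (such as Drd1 and Adora2a) summed to 7256 to 8950 CPM (counts scaled to the size of their library) in the striatum and to at most 262 CPM elsewhere, and the 7 hippocampal markers (such as Prox1 and Fibcd1) to 985 to 1197 CPM in the hippocampus and at most 300.1 CPM elsewhere. The 5 choroid plexus markers (such as Ttr) reached 5966 CPM in WT striatum replicate 3, against 30.5 to 164 CPM in the other striatal libraries, and they varied from 219.7 to 6249 CPM in the hippocampus. All WT striatal libraries were run on lane 5 and the Pcm1-/- striatal libraries on lanes 3 and 4, and an effect of lane and one of genotype cannot be told apart there. These are tissue samples, in which fewer cells of a type and less RNA per cell cannot be told apart.

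On the GRCm38 build, Oprm1 (ENSMUSG00000000766) lies at chr10:6758506-7038198 on the plus strand and has 31 annotated transcripts. Its exons share 96 bp with Ipcef1 on the opposite strand, and since the strand setting of the counting is not given in the sources used here, part of its few counts could belong to that gene. Oprd1 (ENSMUSG00000050511) lies at chr4:132110726-132144486 on the minus strand, with 1 transcript. Oprk1 (ENSMUSG00000025905) is at chr1:5588466-5606131 on the plus strand, Oprl1 (ENSMUSG00000027584) at chr2:181715016-181720985 on the plus strand and Pnoc (ENSMUSG00000045731) at chr14:65400673-65425472 on the minus strand. Counts were taken over all exons of a gene, so the values do not separate its transcripts.

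Promoter sequences from RefSeq (GRCm38.p6, 250 bases before to 50 after a transcription start) were found for 3 of the 5 genes, at 7 starts. The promoters of Oprd1 and of the most upstream listed start of Oprl1 are shown because these were the members past the threshold between genotypes in the frontal cortex. They differ widely in base composition. Capitals mark GC boxes (GGGCGG on either strand), a motif held by 35.7% of 32851 promoters of this length.
Oprd1, chr4:132144437-132144736, minus strand: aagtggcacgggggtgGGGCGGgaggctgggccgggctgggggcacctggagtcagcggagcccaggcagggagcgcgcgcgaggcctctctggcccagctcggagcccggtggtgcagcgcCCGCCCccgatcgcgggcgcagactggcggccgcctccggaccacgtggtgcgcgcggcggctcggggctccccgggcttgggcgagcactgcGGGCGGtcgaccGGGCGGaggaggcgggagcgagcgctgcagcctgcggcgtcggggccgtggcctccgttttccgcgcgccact
Oprl1, chr2:181714766-181715065, plus strand: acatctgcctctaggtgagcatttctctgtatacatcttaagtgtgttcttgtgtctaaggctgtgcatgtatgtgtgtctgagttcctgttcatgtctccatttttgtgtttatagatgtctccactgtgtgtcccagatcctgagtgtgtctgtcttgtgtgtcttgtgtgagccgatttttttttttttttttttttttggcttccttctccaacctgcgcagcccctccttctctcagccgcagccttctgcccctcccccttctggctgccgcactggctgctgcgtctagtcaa
The Oprd1 promoter was 79.3% G and C, against a median of 52.7% over all promoters, and held 4 GC boxes. The Oprl1 promoter was 47.7% G and C and held none. A match is only a description of the letters in this window.

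The 5 genes differed widely in level within a region, and their order changed from region to region. Levels between genes are compared as CPM per kilobase (kb) of annotated exon. In WT frontal cortex, Oprl1 was the highest of the members at 10.6 ± 1.31 CPM per kb (SD, n = 3), followed by Oprd1 at 7.56 ± 0.327 and Pnoc at 2.14 ± 0.304, with Oprk1 at 0.635 ± 0.200 and Oprm1 at 0.213 ± 0.107. In WT striatum, Oprd1 led at 8.81 ± 1.49 CPM per kb, ahead of Oprl1 at 5.95 ± 0.193, Oprk1 at 3.27 ± 0.586, Pnoc at 1.02 ± 0.391 and Oprm1 at 0.466 ± 0.0637. In WT hippocampus, Oprl1 came first again at 8.84 ± 1.63 CPM per kb, before Pnoc at 3.62 ± 0.279 and Oprd1 at 2.26 ± 0.173, while Oprk1 at 0.295 ± 0.0605 and Oprm1 at 0.263 ± 0.147 overlapped. By this measure the nociceptin and delta receptor transcripts were the most abundant receptor transcripts in all 3 WT regions, and the mu receptor transcript, the target of morphine, was the least abundant member in the frontal cortex and striatum. Divided by the longest transcript instead, Oprm1 was at 0.709, 1.55 and 0.874 CPM per kb in frontal cortex, striatum and hippocampus, which puts it above Oprk1 (0.577 CPM per kb) in the hippocampus and above Pnoc in the striatum. Oprk1 in WT striatum was then at 5.13 to 7.36 CPM per kb, which overlapped Oprl1 at 7.04 to 7.47 CPM per kb. Of the classical precursors, Penk at 978 ± 64.7 and Pdyn at 49.6 ± 7.16 CPM per kb stood above every receptor in WT striatum, while Pomc was at 0.383, 0.418 and 0.953 CPM per kb, below Oprd1, Oprl1 and Oprk1.

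**Figure D1:**
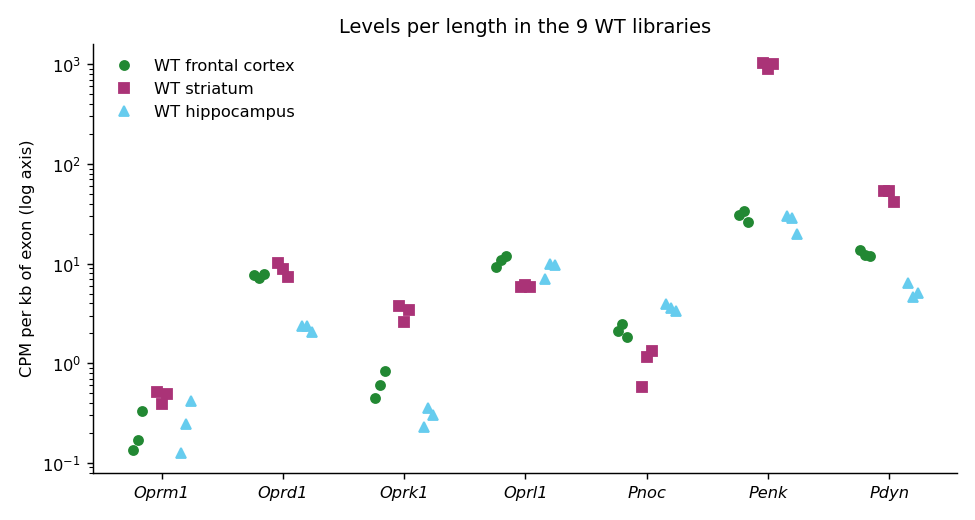
Level per length (CPM per kb of exon, log axis) of the 5 members and of the precursors Penk and Pdyn in the 9 WT libraries, 1 point per library. Penk in the striatum lies near 978 CPM per kb, while the mean of Oprm1 stays between 0.213 and 0.466 CPM per kb in every region.

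The striatum stood apart from both other regions in a way that divided the members. Kappa receptor transcripts were much higher there, delta receptor transcripts were higher than in the hippocampus, and the nociceptin receptor and its precursor were lower there than in either other region. Regions were compared within each genotype, so that the WT and Pcm1-/- mice give separate results from different animals. Differences are log2 fold changes of edgeR (quasi-likelihood test, with p-values adjusted by Benjamini and Hochberg over 17545 genes), and a gene is called at an adjusted p under 0.05. Most genes that differ between regions are not opioid genes. In WT mice 41.5% of all genes were called between striatum and frontal cortex, 29.8% between hippocampus and frontal cortex and 29.2% between striatum and hippocampus. Of the 5 members, 3, 3 and 4 were called in these comparisons. In Pcm1-/- mice 4, 4 and 5 members were called, against 54.3%, 41.5% and 45.0% of all genes.

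Oprk1, the receptor for dynorphin, had the widest range. In WT mice it measured 24.0, 31.5 and 34.4 CPM in the striatum, 4.10, 5.59 and 7.74 CPM in the frontal cortex and 2.12, 2.75 and 3.22 CPM in the hippocampus. No 2 regions overlapped. The striatum was higher than the frontal cortex by 2.37 (SE 0.238) on the log2 scale, with an adjusted p of 2.52e-05 (edgeR), and higher than the hippocampus by 3.47 (SE 0.255), an 11.1-fold difference. The frontal cortex was above the hippocampus, with a log2 difference of hippocampus against frontal cortex of −1.11 (SE 0.252, edgeR adjusted p = 0.00798). The order was the same in Pcm1-/- mice, where the striatum exceeded the frontal cortex by 1.92 (SE 0.169) and the hippocampus by 3.99 (SE 0.197).

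Oprd1, a receptor for enkephalins, was similar in frontal cortex and striatum and low in the hippocampus. The WT libraries gave 29.0, 30.6 and 31.6 CPM in the frontal cortex, 29.3, 35.8 and 41.2 CPM in the striatum and 8.30, 9.44 and 9.55 CPM in the hippocampus. The hippocampus lay below both other regions without overlap. Its log2 difference from the frontal cortex was −1.75 (SE 0.127, edgeR adjusted p = 7.58e-06) in WT and −1.60 (SE 0.105) in Pcm1-/- mice. Striatum and frontal cortex overlapped, with a log2 difference of 0.22 (95% interval −0.04 to 0.49) in WT and 0.08 (−0.14 to 0.30) in Pcm1-/- mice. Without WT striatum replicate 3, the library with the choroid plexus transcripts and the lowest striatal Oprd1, the WT difference was 0.34 with an adjusted p of 0.0259 (edgeR).

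Oprm1 had few counts and was highest in the striatum. WT libraries gave 88, 112 and 113 counts there (3.17 to 4.15 CPM), 31, 36 and 73 counts in the frontal cortex (1.09 to 2.69 CPM) and 26, 53 and 100 counts in the hippocampus (1.00 to 3.36 CPM). The highest WT library of the frontal cortex and of the hippocampus, replicate 3 of each, came from the same mouse. The striatum was above the frontal cortex by 1.13 (SE 0.423), which missed the threshold in WT mice (edgeR adjusted p = 0.055), and above the hippocampus by 0.82 (SE 0.416, adjusted p = 0.177). With the animal as a block the differences were 1.22 (edgeR adjusted p = 0.00427) and 0.94 (adjusted p = 0.0186), and both were then called. Pcm1-/- mice gave 4.20 to 7.79 CPM in the striatum, 2.22 to 2.85 CPM in the frontal cortex and 1.53 to 2.06 CPM in the hippocampus. There the regions did not overlap, and the striatum exceeded the frontal cortex by 1.34 (SE 0.224, edgeR adjusted p = 0.000494) and the hippocampus by 1.86 (SE 0.234). Hippocampus and frontal cortex were not called apart in either genotype, at 0.31 (95% interval −0.65 to 1.27) in WT and −0.52 (−1.06 to 0.01) in Pcm1-/- mice.

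Oprl1, unlike Oprk1, was lowest in the striatum. It measured 34.6, 40.9 and 44.3 CPM in WT frontal cortex, 26.2, 36.0 and 37.4 CPM in WT hippocampus and 21.9, 22.0 and 23.2 CPM in WT striatum. The striatum lay below both other regions without overlap. The log2 difference of striatum against frontal cortex was −0.84 (SE 0.140, edgeR adjusted p = 0.000843) in WT mice, and in Pcm1-/- mice the striatal mean was 49.9% of the cortical one (edgeR adjusted p = 1.8e-07). Against the hippocampus the log2 difference was −0.57 (SE 0.140, edgeR adjusted p = 0.0114) in WT and −0.53 (SE 0.0591) in Pcm1-/- mice. Hippocampus and frontal cortex overlapped in WT mice, at −0.27 (95% interval −0.58 to 0.04), and were called apart in Pcm1-/- mice at −0.47 (SE 0.0579, edgeR adjusted p = 9.35e-05).

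Pnoc, the precursor of the Oprl1 ligand, was highest in the hippocampus and lowest in the striatum. WT libraries gave 7.29, 7.68 and 8.47 CPM in the hippocampus, 3.98, 4.55 and 5.29 CPM in the frontal cortex and 1.25, 2.49 and 2.86 CPM in the striatum. No 2 regions overlapped in WT or in Pcm1-/- mice. Hippocampus was above frontal cortex by 0.76 (SE 0.244, edgeR adjusted p = 0.0397) in WT and by 0.48 (SE 0.153, adjusted p = 0.0273) in Pcm1-/- mice. The striatum was below the hippocampus, with log2 differences of −1.82 (SE 0.257) in WT and −2.23 (SE 0.171) in Pcm1-/- mice. The call between hippocampus and frontal cortex is the least firm of these. In WT mice its adjusted p ran from 0.00543 to 0.125 when each of the 9 libraries was left out in turn, and 2 of the 9 fits called it. It was called with the animal as a block (adjusted p = 0.0135, edgeR). In Pcm1-/- mice 5 of the 9 fits without 1 library called it, and it missed the threshold without each of the 3 frontal cortex libraries and without hippocampus replicate 3 (adjusted p up to 0.0984, edgeR).

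**Figure D2:**
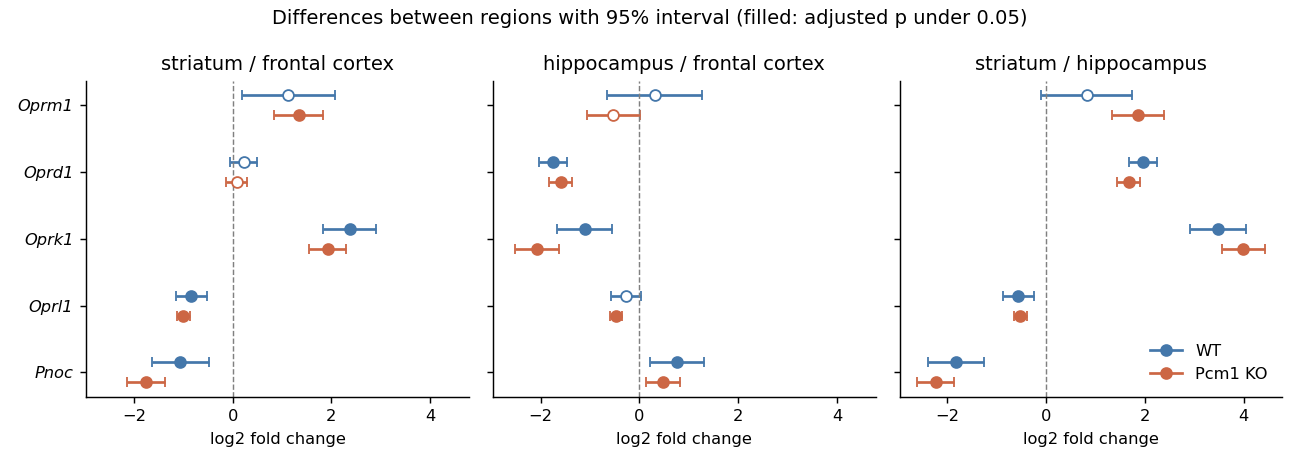
Log2 fold change between regions (horizontal axis) with its 95% interval for each member in WT and Pcm1-/- (Pcm1 KO) mice, from fits of 9 libraries per genotype; filled points have an adjusted p under 0.05. Oprk1 lies to the right in both striatal panels (2.37 and 3.47 in WT), while Oprl1 and Pnoc lie to the left (−0.84 and −1.06 against frontal cortex in WT).

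The other genes of opioid signaling also varied by region. Among 47 such genes (precursors, processing and degrading enzymes, G proteins, receptor kinases and arrestins, RGS proteins, channels and adenylyl cyclases), 34 were called in the same direction in both genotypes between striatum and frontal cortex, 12 higher and 22 lower in the striatum, against 37.9% of all genes. Between hippocampus and frontal cortex 20 were called in both, 3 higher and 17 lower in the hippocampus, against 25.6% of all genes. Between striatum and hippocampus 28 were, 12 higher and 16 lower in the striatum, against 27.2%. Penk and Pdyn were striatal genes, above the frontal cortex by 5.02 (SE 0.177) and 1.97 (SE 0.135) on the log2 scale in WT mice. Rgs9, which speeds the shut-off of G protein signals in striatal neurons, was above the frontal cortex by 6.03 (SE 0.103). Kcnj6, a subunit of the potassium channels that opioid receptors open, was lower in the striatum than in the frontal cortex, with a log2 difference of −4.25 (SE 0.158). Between hippocampus and frontal cortex the widest differences of genes called in both genotypes were those of Rgs4, another RGS protein, at −1.67 (SE 0.108), and of Pcsk1, a convertase that cuts peptide precursors, at −1.66 (SE 0.250). The median log2 difference of the 47 genes between striatum and frontal cortex was −0.19 in WT mice, against 0.020 for all genes.

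Over the 18 libraries, the gene whose log2 CPM followed a member most closely among 12870 genes was Ackr2 for Oprd1 (Pearson's r = 0.980), followed by Rbp4 (0.978) and Ano8 (0.976). For Oprk1 it was Enpp5 (0.982), then Ass1 (0.975) and Gpr158 (0.973). For Oprl1 it was Tmem246 (0.978), then Ggt7 (0.976) and B3galnt1 (0.973), and for Pnoc it was Mettl26 (0.971), then Slc16a10 (0.970) and Tmem108 (0.970). Oprm1 was followed by Nalcn (0.950), Xiap (0.924) and Crebrf (0.922). These correlations describe libraries that share animals and regions. Between deviations from the region means, the same 15 pairs correlated at 0.537 (Oprk1 and Ass1) to 0.932 (Oprl1 and Tmem246). Each region mean was taken over both genotypes, so these deviations still hold the genotype difference. Its part in the correlations was not tested. Ranked by Spearman's correlation 2 of the 15 named genes stayed in the lists, and ranked by deviations from the region means 1 did. Among the opioid genes themselves, Oprk1 followed Pdyn (r = 0.963) and ran opposite to Pnoc (−0.922), but the deviations of Oprk1 from its region means followed those of Oprl1 (0.794) more than those of Pdyn (0.238).

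**Figure D3:**
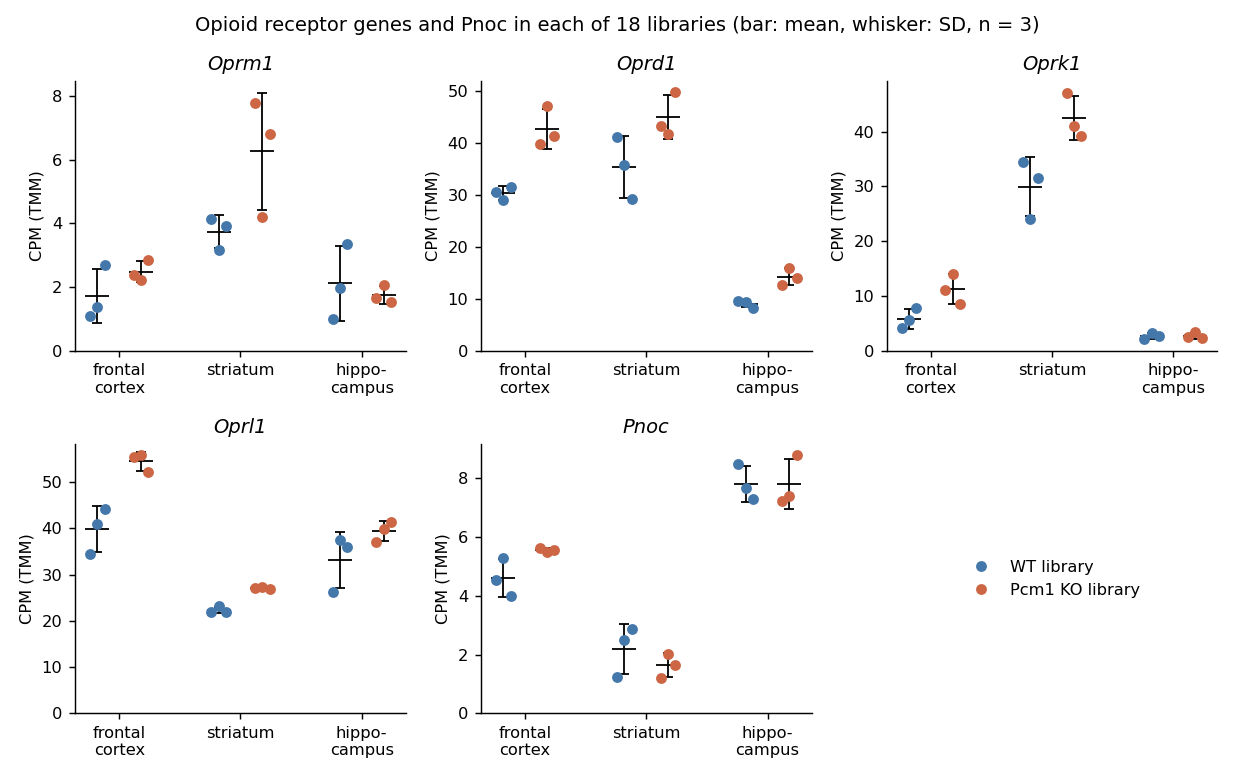
TMM-scaled CPM (vertical axis, from 0) of the 5 members in each of the 18 libraries by region, with WT in blue and Pcm1-/- (Pcm1 KO) in orange; the bar is the mean and the whisker the SD of 3 libraries. Oprd1 is the member whose Pcm1-/- points lie above all WT points in every region, with a lowest Pcm1-/- value of 39.8 CPM against a highest WT value of 31.6 CPM in the frontal cortex, 12.7 against 9.55 CPM in the hippocampus and, nearly touching, 41.9 against 41.2 CPM in the striatum.

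Between genotypes, Oprd1 and Oprl1 were higher in the frontal cortex of Pcm1-/- mice, and the other 3 members did not pass the threshold. All 5 members had a log2 fold change above 0 there, as did 48.1% of all genes, and their median was 0.48 against −0.0066 for all genes. The threshold was passed by 2 of the 5, against 1.74% of all genes (1.41% in the higher direction), and the groups did not overlap for 4, Oprd1, Oprk1, Oprl1 and Pnoc, against 21.3% of all genes without overlap in either direction. Within the region the 3 WT libraries were compared with the 3 Pcm1-/- libraries. The 306 genes behind the share of 1.74% depended on each of these 6 libraries, and ranged from 11 without Pcm1-/- replicate 1 to 825 without WT replicate 3.

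Oprd1 measured 29.0, 30.6 and 31.6 CPM in WT frontal cortex and 39.8, 41.3 and 47.1 CPM in Pcm1-/- frontal cortex. It was 1.40-fold higher in Pcm1-/- mice, a log2 fold change of 0.48 (SE 0.0780, 95% interval 0.31 to 0.66, edgeR adjusted p = 0.0238). Oprl1 rose from 34.6, 40.9 and 44.3 CPM to 52.1, 55.4 and 55.9 CPM, a log2 fold change of 0.44 (SE 0.0881, 95% interval 0.24 to 0.64, edgeR adjusted p = 0.0475). Neither pair of groups overlapped, and both differences were of similar size. Their directions held in all 14 alternative fits of each gene, in 6 of which each was called, with adjusted p from 8.59e-05 to 0.115 for Oprd1 and from 0.00120 to 0.230 for Oprl1. Leaving out WT replicate 3, the WT library with the highest value of each of the 4 receptor genes, brought these 4 members past the threshold. Leaving out any 1 of the other 5 libraries left none, and so did lane as a covariate. The folds moved less than the calls. With a library left out, the log2 fold change was 0.40 to 0.54 for Oprd1 and 0.35 to 0.53 for Oprl1. With lane it was 0.46 within the region and 0.49 in the fit of all libraries for Oprd1, and 0.34 and 0.38 for Oprl1. Of the cortical libraries, lane 3 held only WT replicate 1. The lane fit within the region therefore took no genotype difference from that library.

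Oprk1 had the widest difference of the members in the frontal cortex and missed the threshold. Its libraries gave 4.10, 5.59 and 7.74 CPM in WT and 8.50, 11.1 and 14.0 CPM in Pcm1-/- mice, which did not overlap but spread widely within each group. The difference was 0.94 on the log2 scale (SE 0.240, 95% interval 0.40 to 1.49, edgeR adjusted p = 0.1003), about 1.92-fold. DESeq2 called it (adjusted p = 0.00213), as did edgeR with no filter on low counts (adjusted p = 0.0232). Oprm1 overlapped between genotypes at 1.09, 1.37 and 2.69 CPM in WT and 2.22, 2.38 and 2.85 CPM in Pcm1-/- mice, with a log2 difference of 0.53 (95% interval −0.16 to 1.21). With 1 library left out this difference ran from 0.27 to 1.01. The highest value, without WT replicate 3, was the only one called (adjusted p = 0.0347, edgeR). Pnoc gave 3.98, 4.55 and 5.29 CPM in WT and 5.50, 5.55 and 5.64 CPM in Pcm1-/- mice, a difference of 0.27 (95% interval −0.02 to 0.56, edgeR adjusted p = 0.372).

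In the striatum no member was called, and 0.0285% of all genes were. At an unadjusted p under 0.05 there were 2371 genes of 17545, among them all 4 receptor genes. The groups did not overlap for the 4 receptor genes, each higher in Pcm1-/- mice, against 19.0% of all genes without overlap in either direction. Oprl1 had the tightest groups, at 21.9, 22.0 and 23.2 CPM in WT and 27.0, 27.1 and 27.4 CPM in Pcm1-/- mice, a log2 difference of 0.29 (95% interval 0.13 to 0.44, edgeR adjusted p = 0.169). Oprk1 gave 24.0, 31.5 and 34.4 CPM in WT and 39.2, 41.1 and 47.0 CPM in Pcm1-/- mice, a difference of 0.50 (95% interval 0.20 to 0.81, edgeR adjusted p = 0.201, and 0.0211 by DESeq2). Oprd1 nearly touched, at 29.3, 35.8 and 41.2 CPM in WT and 41.9, 43.3 and 49.9 CPM in Pcm1-/- mice (0.35, 95% interval 0.06 to 0.64). Oprm1 was 3.17, 3.91 and 4.15 CPM in WT and 4.20, 6.80 and 7.79 CPM in Pcm1-/- mice, with the widest difference of the members at 0.74 (95% interval 0.20 to 1.28, edgeR adjusted p = 0.247). Pnoc was the exception in direction. It gave 1.25, 2.49 and 2.86 CPM in WT and 1.21, 1.66 and 2.04 CPM in Pcm1-/- mice, from 34 to 82 counts a library, and its interval of −1.18 to 0.34 includes 0.

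In the hippocampus no member was called by the fit within the region, and 0.0171% of all genes were. At an unadjusted p under 0.05 there were 1736 genes, among them Oprd1. It gave 8.30, 9.44 and 9.55 CPM in WT and 12.7, 14.0 and 15.9 CPM in Pcm1-/- mice, without overlap, against 17.1% of all genes without overlap in either direction. The log2 difference was 0.63 (SE 0.123, 95% interval 0.34 to 0.91, edgeR adjusted p = 0.391), 1.54-fold. It was called by DESeq2 (adjusted p = 0.0112), in 1 fit of all 18 libraries (0.0236) and in that fit with lane (0.0477). The remaining members overlapped between genotypes. Oprk1 and Pnoc had differences of −0.017 each, with 95% intervals of −0.56 to 0.53 and −0.34 to 0.30, Oprl1 was at 0.23 (−0.08 to 0.55) and Oprm1 at −0.31 (−1.25 to 0.62). The median of the 5 members was −0.017, against −0.00033 for all genes.

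Oprd1 was thus the member whose Pcm1-/- libraries were above every WT library in all 3 regions, a pattern that 1.90% of all genes shared in this direction and 0.422% in the opposite one. Since the 3 regions came from the same animals, they do not repeat the comparison in other mice. Oprk1, Oprl1 and Penk were higher without overlap in 2 regions each, as were 4.82% of all genes. A test of whether the genotype difference varied by region called 0 of the 5 members (edgeR adjusted p from 0.884 to 1.0), against 0.0114% of all genes. At an unadjusted p under 0.05 that test had 972 genes, among them Oprk1 and no other member, and DESeq2's likelihood ratio test called no member either. The different calls in the 3 regions therefore do not show different genotype effects.

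**Figure D4:**
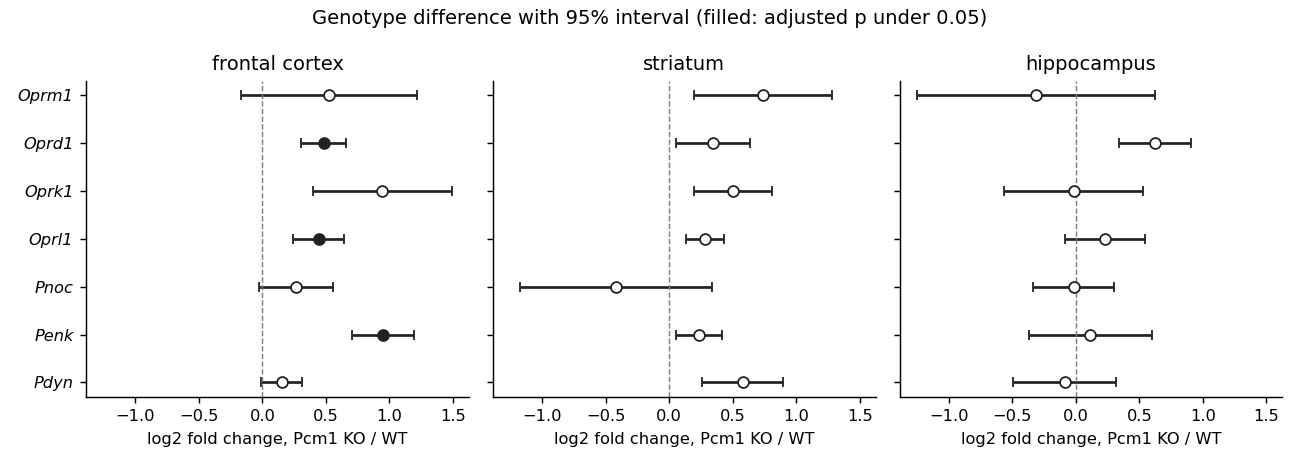
Log2 fold change of Pcm1-/- (Pcm1 KO) over WT mice (horizontal axis) with its 95% interval for the members, Penk and Pdyn in each region, from 3 libraries per group; filled points have an adjusted p under 0.05. In the frontal cortex Oprd1 (0.48), Oprl1 (0.44) and Penk (0.95) are filled, and no point is filled in the striatum or hippocampus.

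Of the 3 precursors, Penk in the frontal cortex was called between genotypes. It measured 42.3, 50.1 and 55.1 CPM in WT and 85.4, 94.1 and 107 CPM in Pcm1-/- mice, 1.93-fold higher with a log2 fold change of 0.95 (SE 0.108, 95% interval 0.71 to 1.19, edgeR adjusted p = 0.00816). It was called in 13 of 14 alternative fits, and missed the threshold without Pcm1-/- replicate 1 (adjusted p = 0.0522, edgeR). Its exons share 233 bp with A830012C17Rik on the opposite strand. In the striatum Penk gave 1476, 1648 and 1668 CPM in WT and 1810, 1846 and 1976 CPM in Pcm1-/- mice, which did not overlap, at 0.24 on the log2 scale (95% interval 0.05 to 0.42, edgeR adjusted p = 0.267). With lane in a fit of all libraries this difference was −0.17. That value assumes that lane acts alike in all regions, since lane and genotype cannot be told apart within the striatum. In the hippocampus its groups overlapped.

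Pdyn was 119, 154 and 156 CPM in WT striatum and 189, 199 and 253 CPM in Pcm1-/- striatum, without overlap, at 0.58 on the log2 scale (SE 0.138, 95% interval 0.26 to 0.90, edgeR adjusted p = 0.177, and 0.00332 by DESeq2). Its difference was 0.15 in the frontal cortex (95% interval −0.01 to 0.31) and −0.089 in the hippocampus. Pomc stood at 11 to 46 counts in all libraries but WT frontal cortex replicate 2, which had 334. Its fold change there was −2.32 (edgeR adjusted p = 0.325) and became 0.016 without that library.

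**Figure D5:**
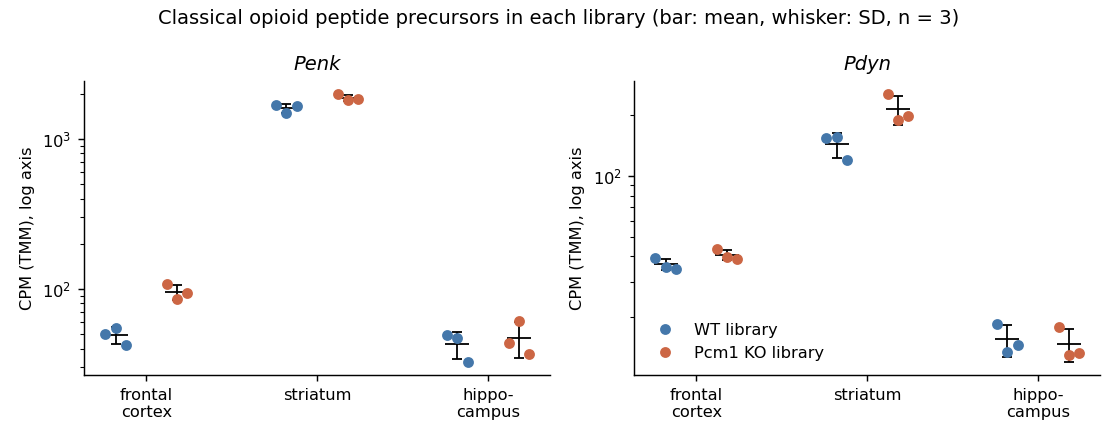
TMM-scaled CPM (log axis) of Penk and Pdyn in each of the 18 libraries by region, with WT in blue and Pcm1-/- (Pcm1 KO) in orange; the bar is the mean and the whisker the SD of 3 libraries. In the frontal cortex the Penk points of Pcm1-/- mice start at 85.4 CPM, above the highest WT point of 55.1 CPM.

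Among the 47 other opioid signaling genes, 2 were called in the frontal cortex, both higher in Pcm1-/- mice, Penk and Kcnj3, against 1.74% of all genes. Kcnj3, a subunit of the inwardly rectifying potassium channels opened by opioid receptors, measured 178.0 to 201.3 CPM in WT and 236.8 to 252.6 CPM in Pcm1-/- frontal cortex, a log2 fold change of 0.38 (SE 0.0613, edgeR adjusted p = 0.0240). It was called in 6 of 14 alternative fits, and missed the threshold in the fit of all 18 libraries, in both fits with lane and in 5 of the 6 fits without 1 library (adjusted p up to 0.174, edgeR, without Pcm1-/- replicate 1). The median of the 47 genes was 0.0051, and 26 of them had a log2 fold change above 0, as did 48.1% of all genes. None of the 47 was called in the striatum or hippocampus, where 0.0285% and 0.0171% of all genes were and the medians were 0.0011 and 0.0025. Processing enzymes, degrading enzymes, G proteins, receptor kinases and arrestins, RGS proteins and adenylyl cyclases had no call in any region between genotypes.

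The summed levels of several marker lists also differed by genotype in the same libraries. In the frontal cortex the 7 markers of cortical projection neurons summed to 2748 to 2859 CPM in WT and 3151 to 3377 CPM in Pcm1-/- mice. For 5 of the 7 the log2 fold change was above 0. Slc17a7, which was called, was the 1 marker higher without overlap, and Fezf2 was lower without overlap. The 5 oligodendrocyte markers summed to 1757 to 2388 CPM in WT and 1572 to 1661 CPM in Pcm1-/- mice, and the 5 blood markers to 109.3 to 175.2 and 35.8 to 79.0 CPM, with 0 of 5 above 0 in both lists. The 4 microglial markers were also lower, at 253.1 to 335.7 and 215.9 to 247.1 CPM. The 7 interneuron markers overlapped in sum, at 789.9 to 985.0 and 982.2 to 1078 CPM, with Sst called, and the 4 claustral and endopiriform markers were higher, at 71.3 to 83.6 and 84.7 to 93.0 CPM, with Ntng2 called. The 5 thalamic markers summed to 34.0 to 42.2 CPM in WT and 31.7 to 33.7 CPM in Pcm1-/- mice. Of these 5, 2 were above 0, 1 was lower without overlap and none was called. The 7 striatal markers overlapped at 220.8 to 234.2 and 227.1 to 261.8 CPM, with Drd1 called. The 7 hippocampal markers overlapped in sum at 198.0 to 229.5 and 193.0 to 227.6 CPM. Of these 7, 0 were above 0, 2 were lower without overlap and none was called. The part of these lists in the differences of Oprd1, Oprl1 and Penk was not tested.

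In the striatum the 7 markers of striatal projection neurons overlapped in sum, at 7256 to 8450 CPM in WT and 8315 to 8950 CPM in Pcm1-/- mice, with 6 of the 7 above 0 and 4 higher without overlap. The sum of the 4 striosome markers, a list that holds Pdyn itself, was 200.9 to 257.3 CPM in WT and 285.0 to 353.1 CPM in Pcm1-/- mice. Without Pdyn the other 3 summed to 81.5 to 102.9 and 96.5 to 105.0 CPM, which overlapped. The oligodendrocyte markers summed to 8658 to 8863 and 5204 to 8592 CPM. The claustral and endopiriform markers summed to 72.5 to 83.5 CPM in WT and 85.1 to 95.3 CPM in Pcm1-/- striatum, with 2 of the 4 above 0, and the thalamic markers to 35.7 to 111 and 31.8 to 35.2 CPM, with 0 of 5 above 0. No marker of these 5 lists was called there. The microglial markers overlapped in sum at 306.3 to 412.0 and 276.0 to 318.2 CPM, with 0 of 4 above 0, 2 lower without overlap and none called. Oprm1 is known as a marker of striosomes, and the part of these lists in the striatal values was not tested. In the hippocampus the sum of the cortical projection neuron markers was 1479 to 1941 CPM in WT and 2008 to 2449 CPM in Pcm1-/- mice. Its members went both ways, with 1 of the 7 higher without overlap, 2 lower without overlap and none called. The blood markers there summed to 125.3 to 216.0 CPM in WT and 33.3 to 69.8 CPM in Pcm1-/- mice, with all 5 lower without overlap. The thalamic markers overlapped in sum at 140.8 to 387.6 and 53.7 to 168.6 CPM, with 0 of 5 above 0 and 2 lower without overlap, and the oligodendrocyte markers at 4554 to 9209 and 3461 to 5621 CPM, with 0 of 5 above 0. The 3 striosome markers other than Pdyn summed to 73.3 to 74.5 and 79.2 to 89.2 CPM, without overlap. The part of these lists in the Oprd1 values of the hippocampus was not tested.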

How the data were processed

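RNA from frontal cortex, striatum and hippocampus of adult WT and Pcm1-/- mice (3 libraries per group) was sequenced from stranded mRNA libraries. The authors trimmed reads with Trim Galore and cutadapt, aligned them to GRCm38 (release 73) with STAR, discarded reads with several positions, counted them on genes with HTSeq and deposited raw counts, 1 file per library. Tool versions and the strand setting are not given in the sources used here. Between 86.8% and 89.2% of the counted reads were on a gene, and rows without a gene stayed out of library sizes and tests.

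Groups and replicate numbers came from the titles, lanes from the descriptions and animals from the file names. The 17545 genes with 10 or more counts in any library were tested with the two-sided quasi-likelihood test of edgeR 4.0.16 (R 4.3.3, TMM factors), and p-values were adjusted over all of them by Benjamini and Hochberg. Genotypes were fitted on the 6 libraries of a region, regions on the 9 libraries of a genotype, and the interaction on all 18. Standard errors were obtained as the size of a log2 fold change over the square root of its F. CPM shown per library used TMM factors over 18 libraries, log2 CPM a prior count of 2, and levels per kb the union of exons of GENCODE M21. Replicates are separate mice. No replicate pair agreed within sampling noise (chi-square per degree of freedom at least 7.01 over 18 pairs). Libraries of the same animal correlated across regions, after removal of group means, at 0.267 in WT and 0.198 in Pcm1-/- mice, against −0.133 and −0.0979 for different animals, so the animal was used as a block in an alternative. Alternatives were DESeq2 1.42.0, its size factors, other filters, other sample sets, lane, blocks by replicate number or animal, and leaving out each library. The genotype comparison within a region was also run on simulated counts, drawn with the spread fitted to these data and without effects of lane or animal. The region comparisons and the interaction were not simulated. Named are all members, the classical precursors, the other opioid signaling genes called between genotypes or with the 2 widest differences per region pair called in both genotypes, the 3 genes most correlated with each member (mean log2 CPM at least 1), Pcm1, and markers of the lists given. Examples of marker genes were picked from those lists. Of the 7 markers of septal and hypothalamic neurons, 3 passed the filter. These summed to 11.5 to 189 CPM and overlapped between genotypes in every region, with 0 of 3 log2 fold changes above 0 in each. The hippocampal sums were 34.3 to 188.9 CPM in WT and 11.5 to 69.0 CPM in Pcm1-/- mice. The members and lists were chosen with earlier results of these data known. Python 3.11.15, numpy 2.4.6, pandas 2.3.3 and matplotlib 3.10.9 served for tables and plots.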

Additional observations from a re-analysis of the deposited data

How the results depend on the processing

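Counts of called members between regions, and the interaction count, stayed within 1.5 times of the reported ones under every alternative run. Between genotypes they moved. In the frontal cortex 2 members were called, and 0 in 1 fit of all 18 libraries, in that fit with lane and with lane within the region, while DESeq2 and no filter gave 3, with Oprk1, and leaving out libraries gave 0 to 4. In the striatum 0 became 1 by DESeq2 (Oprk1), and in the hippocampus 0 became 1 (Oprd1) by DESeq2, in 1 fit of all libraries and in that fit with lane. Fewer samples enter the fits without a library, and the cause of the other shifts was not tested. Over all genes, the 306, 5 and 3 calls in frontal cortex, striatum and hippocampus became 688, 490 and 221 by DESeq2, 176, 54 and 205 in 1 fit of all libraries and 95, 8 and 160 with lane in it, the interaction calls went from 2 to 94 by DESeq2, lane within the region gave 29 cortical and 2 hippocampal calls, no filter gave 544 and 65 in frontal cortex and striatum, and leaving out 1 library gave 11 to 825, 2 to 5 and 1 to 11 in the 3 regions.

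Signs turned only for genotype differences, or regional ones, that were not called. Penk in the striatum was −0.17 with lane in the fit of all libraries. Striatal values of that fit assume that lane acts alike in all regions. In the hippocampus Oprk1 was 0.017 in that fit and 0.12 with lane within the region, and Pnoc was 0.00032 in the fit of all libraries and 0.069 with lane in it. Of the hippocampal libraries, lane 4 held only WT replicate 2, which gave no genotype difference to the lane fit within the region. Leaving out each library, the hippocampal genotype differences ran from −0.65 to 0.19 for Oprm1, −0.20 to 0.12 for Oprk1, −0.13 to 0.046 for Pnoc, −0.11 to 0.25 for Penk, −0.27 to 0.062 for Pdyn and −0.22 to 0.77 for Pomc, and that of Pomc in the frontal cortex from −2.88 to 0.016. Between regions they ran from −0.19 to 0.79 for Oprm1 in WT hippocampus against frontal cortex, from −0.0046 to 0.16 for Oprd1 and −0.21 to 0.53 for Pomc in Pcm1-/- striatum against frontal cortex, from −1.02 to 0.18 for Pomc in Pcm1-/- hippocampus against frontal cortex and from −0.044 to 0.73 for Pomc in WT striatum against hippocampus.

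Replicate numbers are shared by the genotypes but did not pair the libraries. Same-numbered libraries of both genotypes correlated at a mean of 0.167 (frontal cortex), −0.0823 (striatum) and 0.265 (hippocampus), and every library correlated best with its own number only in the frontal cortex. With the replicate number as a block, 2, 0 and 0 members were called between genotypes, as without it, and 665, 3 and 9 genes of all. Of the members, the block moved the calls of Oprm1 between WT striatum and frontal cortex (1.25, adjusted p = 0.0181, edgeR) and of Pnoc between WT hippocampus and frontal cortex (0.77, adjusted p = 0.0569, edgeR). The block by animal changed no call of a member but the Oprm1 calls given above. Pnoc between Pcm1-/- hippocampus and frontal cortex missed the threshold in 1 fit of all libraries (0.49, adjusted p = 0.0799, edgeR). Oprm1 rests on at most 218 counts a library and Pnoc in the striatum on at most 82, which limits what their intervals can show.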
